A study of Mus musculus with 6 samples.

Results

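Icam1, Icam2, Vcam1, Sele, Selp, Cd34, Ccl2, Cxcl12 and Cx3cl1 are genes through which a vessel wall holds or attracts leukocytes. These 9 genes were taken by name, and not by their values, from the 20822 genes of a table of UMI counts (unique molecular identifiers, which count captured mRNA molecules) of single retinal cells. The choice was made with earlier results of these data known. The cells came from mice at postnatal day 14 of oxygen-induced retinopathy (OIR), in which pups are kept in high oxygen, lose retinal capillaries, and regrow vessels after return to room air. Wildtype C57BL/6J mice (eNOS+/+) were compared with mice carrying a knockout of endothelial nitric oxide synthase (eNOS-/-), 3 replicates of pooled retinas each, and every replicate had OIR, so no retina without the injury is included. Endothelial cells (ECs) were enriched with beads against CD31 and cells were captured by Drop-seq, a droplet method that reads the 3' end of mRNAs. The deposited annotation gives 5925 of 8944 cells an EC label (1428 Tip ECs, 3335 Structural ECs, which the annotation names only "ECs", and 1162 Proliferative ECs), and names 214 Mural and 216 Immune cells among its 10 cell types.

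Leukocytes leave the blood in steps. Selectins on the endothelium (Sele, Selp) catch passing leukocytes and let them roll, chemokines held on the surface or released nearby (Ccl2, Cxcl12, Cx3cl1) activate them, and immunoglobulin-family proteins (Icam1, Icam2, Vcam1) bind their integrins so that they stop. Cd34 is a sialomucin of the luminal endothelial surface that can carry selectin ligands. In OIR, leukocytes and microglia gather at the regressing and regrowing vessels, and Cxcl12 also guides vessel growth through its receptor Cxcr4.

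Depth set what could be read. Each replicate held 415 to 3710 cells and 617246 to 3350799 UMIs, and its ECs together 488367 to 2425603 UMIs. UMIs were summed over the cells of a label in each replicate and given as CPM (counts per 1000000 UMIs of that sum), so that fewer expressing cells and less RNA per cell cannot be told apart in a level. Sums of fewer than 10 cells were left out, which removed the 3 Mural cells of eNOS+/+ replicate 1 and the 1 Immune cell of eNOS+/+ replicate 2. The labels carried their own markers: a summed list of 7 EC genes stood at 5531 to 6425 CPM in ECs and at 757 to 1644 CPM in Mural cells, 8 mural genes at 15199 to 26719 CPM in Mural cells, and 8 immune genes at 9928 to 11420 CPM in Immune cells, with no gene of a list at 0 in its own label. A list of 5 neuroglial genes (Glul, Rlbp1, Slc1a3, Gfap and Apoe) did not set its label apart, as it stood at 15369 to 19973 CPM in Neuroglia and at 18653 to 24022 CPM in Immune cells. There Apoe, which microglia also make, gave 20342 CPM on average, Gfap was at 0 and Glul stood at 445 CPM, against 5877, 451 and 5473 CPM in Neuroglia, where the immune list was at 0 to 120 CPM and 6 of its 8 genes at 0. Both eNOS-/- replicate 2 and replicate 3 stood apart. The ECs of replicate 2 were shallow, at 418 UMIs in the median cell and 782.5 to 1097.5 in the other 5 replicates, and had the highest median mitochondrial share, at 3.19% against 1.30 to 2.76%. In replicate 3 the Structural ECs carried the mural list at 3864 CPM, against 15.0 to 164 CPM in the other 5 replicates. Of the ECs, 2088 (35.2%) had a barcode that differed from another of the same replicate only in its last base, so that cells are not all independent, and 3 of the 15 pairs of libraries shared 1 barcode each. Nos3 (chr5:24364810-24384474 in GRCm38), the gene that was knocked out, was still counted in the ECs of the replicates labelled eNOS-/-, at 21.2, 16.1 and 32.8 CPM against 19.4, 36.6 and 23.6 CPM in eNOS+/+ (log2 fold change -0.29, SE 0.35, adjusted p = 0.969 by edgeR). These counts therefore do not check the genotype labels: whether the 3' end lies outside the deleted part is not given in the sources used here, and Nos3 overlaps Atg9b and Gm15587 on the other strand.

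Of the 9 genes, 8 were read mostly from ECs and Ccl2 was not. ECs gave 79.5% of all UMIs, but 94.5% of the 293 UMIs of Icam1, 98.5% of the 2006 of Icam2, 94.8% of the 423 of Sele, 97.5% of the 6093 of Cd34, 97.3% of the 2260 of Cxcl12, 92.1% of the 267 of Cx3cl1 and all 16 of Selp. Vcam1 (265 UMIs) was shared between ECs, with 67.9%, and Neuroglia, with 25.7%. Only 26.4% of the 261 UMIs of Ccl2 fell in ECs, against 50.6% in Mural and 14.2% in Immune cells, labels that gave 3.03% and 1.62% of all UMIs. The cell labels were made by clustering the same UMIs, so differences between labels are described below by the number of replicates that share them and are not tested.

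**Figure D1:**
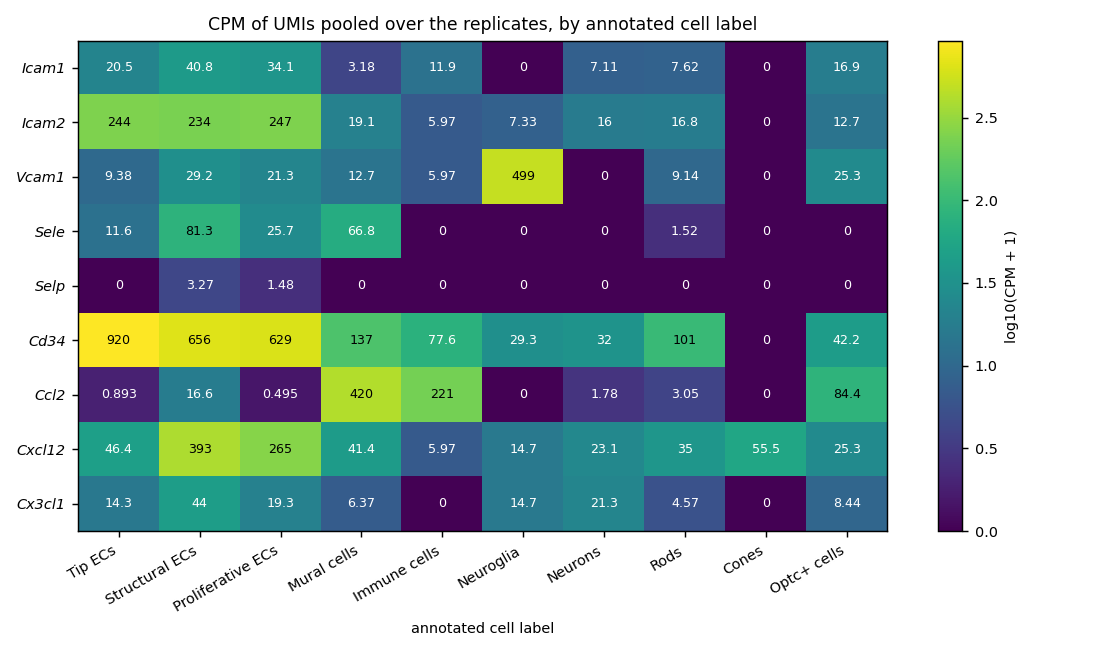
Level of each gene (rows) in each annotated cell label (columns), in CPM of the UMIs pooled over the 6 replicates, printed in each cell and coloured by log10(CPM + 1). Ccl2 was highest in Mural cells (420 CPM), Vcam1 in Neuroglia (499 CPM), Sele and Cxcl12 in Structural ECs (81.3 and 393 CPM) and Cd34 in Tip ECs (920 CPM).

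Among the integrin ligands, Icam2 was spread evenly over the EC labels. Icam2 (chr11:106377656-106388075, minus strand) is carried by resting endothelium and binds the leukocyte integrin LFA-1. It stood at 247 ± 57.0 CPM in Tip, 236 ± 45.0 in Structural and 238 ± 26.0 in Proliferative ECs (SD, n = 6), and these labels did not differ beyond their spread. At full depth 21.7% of ECs held an Icam2 UMI (95% Wilson interval 20.7 to 22.8%, for counting error only), against 0.597% of Rods, a cell type that lacks it, with median depths of 682 and 361 UMIs per cell. For shares at equal depth, cells with 500 or more UMIs were thinned to 500 UMIs and shallower cells were left out. This left out 337 Tip, 1688 Structural and 355 Proliferative ECs. Of the 1091, 1647 and 807 that remained, 10.7%, 10.9% and 10.5% held an Icam2 UMI. Mural cells held 6 and Immune cells 1 of its UMIs.

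Icam1 and Vcam1, the ligands that endothelium makes more of when inflamed, were each lower in Tip than in Structural ECs in 5 of 6 replicates. Icam1 (chr9:21015985-21028817, plus strand) overlaps an antisense gene, Gm47079, and was counted in ECs at 40.0, 48.7 and 41.4 CPM in eNOS+/+ replicates 1 to 3 and at 34.1, 25.6 and 16.4 CPM in eNOS-/- replicates 1 to 3. By label it stood at 39.8 ± 12.5 CPM in Structural, 36.9 ± 21.7 in Proliferative and 22.2 ± 16.1 in Tip ECs, and was higher in Structural than in Tip ECs in 5 of 6 replicates. It was at 0 in all 5 Mural sums used and had 2 UMIs in Immune cells. The Structural and Proliferative means lay within each other's spread, while the Structural and Tip means lay just outside it. The Mural zeros allow up to 31.1 to 149 CPM per sum, in each library above its EC level, so no single library sets Mural cells apart. Pooled over all replicates, Mural cells held 1 Icam1 UMI (3.18 CPM), against 33.6 CPM in ECs.

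Vcam1 (chr3:116109949-116129688, minus strand) binds the integrin VLA-4 and overlaps the antisense gene Gm43109. It stood at 27.8 ± 6.06 CPM in Structural, 14.5 ± 12.4 in Proliferative and 11.5 ± 12.5 in Tip ECs, with Structural above Tip ECs in 5 of 6 replicates and only 21 UMIs in Tip ECs. Proliferative and Tip ECs did not differ beyond their spread. In Neuroglia it reached 292, 431 and 120 CPM in eNOS+/+ replicates 1 to 3 and 383 and 750 CPM in eNOS-/- replicates 1 and 2, above the ECs of the same library in all 5. That order held for 3.75% of the 8451 genes with 100 or more EC UMIs. The 38 Neuroglia with a Vcam1 UMI were 20.7% of 184 and carried the EC list at 1350 CPM, close to the 1262 CPM of those without. They came from 36 barcode families, and no cell held more than 7 Vcam1 UMIs.

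Sele separated the EC labels. Sele (chr1:164048234-164057677, plus strand) encodes E-selectin, which endothelium makes after cytokine exposure. In Structural ECs it stood at 120, 93.1 and 93.2 CPM in eNOS+/+ replicates 1 to 3 and at 83.8, 37.6 and 149 CPM in eNOS-/- replicates 1 to 3. In Tip ECs of the same libraries it stood at 18.4, 0 and 29.5 CPM and at 16.0, 0 and 0 CPM. The 2 labels did not overlap in any library or between libraries. The 149 CPM of eNOS-/- replicate 3 rests on few cells, as 27 of its 40 Sele UMIs in Structural ECs (67.5%) were in 1 cell, and it is 49.1 CPM without that cell (left out after seeing the data), still above every Tip sum. The means were 96.2 ± 37.4 CPM in Structural, 34.7 ± 16.5 in Proliferative and 10.6 ± 12.5 in Tip ECs, an order that each of the 6 replicates repeated. Without the 1 cell, eNOS-/- replicate 3 no longer had Structural above Proliferative ECs, which stood at 51.2 CPM there. Structural above Tip ECs in all 6 replicates was found for 9.49% of 8451 genes, Structural above Proliferative for 6.83%, and Proliferative above Tip ECs for 11.3%. Among the 9 genes, Sele and Cxcl12 met the first, Sele and Cx3cl1 the second, and Sele and Cxcl12 the third. Few cells carried Sele: 3.90% of Structural ECs (interval 3.29 to 4.61%), 3.36% of Proliferative and 1.19% of Tip ECs held a UMI, against 0.0663% of Rods, and after thinning 2.79%, 1.73% and 0.458% did. Immune cells had no Sele UMI, which allows up to 17.9 CPM over their 167465 UMIs. In Mural cells 20 of the 21 UMIs came from 5 cells of eNOS-/- replicate 3. Those 5 cells, of 3 barcode families, carried the mural list at 35268 CPM and the EC list at 357 CPM, below the 809 CPM of the other 52 Mural cells there.

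The promoters of Sele and Icam1 are shown because these genes were found in the same ECs (below), with that of Cxcl12, which had no common direction in the splits of ECs by Sele or by Icam1. Each is the plus strand of GRCm38.p6 from RefSeq, 250 bases before to 50 after the start that RefSeq gives the gene, and 6 of the 9 genes had an entry. For Sele and Cxcl12 that start is also the first base of the gene coordinates given here, and for Icam1 it is 21015940, 45 bases before them. Capitals mark matches, on either strand, to GGG followed 5 bases later by CC, a loose core of the sites bound by NF-kappaB, to TATAAA, the letters of a TATA box, and to TGANTCA, a site of AP-1.
Sele, chr1:164047984-164048283: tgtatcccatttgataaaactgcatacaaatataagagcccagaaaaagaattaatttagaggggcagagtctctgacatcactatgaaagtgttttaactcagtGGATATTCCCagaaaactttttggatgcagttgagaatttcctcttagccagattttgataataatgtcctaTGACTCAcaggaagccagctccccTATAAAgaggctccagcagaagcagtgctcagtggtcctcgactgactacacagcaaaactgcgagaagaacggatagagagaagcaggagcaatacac
Icam1, chr9:21015690-21015989: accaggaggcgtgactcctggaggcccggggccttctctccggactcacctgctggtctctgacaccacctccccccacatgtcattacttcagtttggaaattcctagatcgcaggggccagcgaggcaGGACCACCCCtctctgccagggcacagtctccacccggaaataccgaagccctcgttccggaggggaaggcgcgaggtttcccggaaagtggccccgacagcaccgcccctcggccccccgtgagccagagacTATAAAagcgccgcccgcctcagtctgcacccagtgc
Cxcl12, chr6:117168285-117168584: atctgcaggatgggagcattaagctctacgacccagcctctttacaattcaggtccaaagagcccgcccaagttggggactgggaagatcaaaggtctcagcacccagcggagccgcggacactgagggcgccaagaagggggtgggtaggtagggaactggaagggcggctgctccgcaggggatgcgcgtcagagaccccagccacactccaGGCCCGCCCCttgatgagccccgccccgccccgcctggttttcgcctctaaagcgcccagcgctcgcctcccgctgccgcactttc
The Sele window held 1 match to each motif, and its NF-kappaB match GGATATTCCC began 145 bases before the start. The Icam1 window held an NF-kappaB match, GGACCACCCC, 120 bases before the RefSeq start, and the letters TATAAA 13 bases after it. The Cxcl12 window held an NF-kappaB match alone, GGCCCGCCCC. Of the entries not shown, the Cx3cl1 window held TATAAA alone, that of Selp NF-kappaB and AP-1 matches, and that of Cd34 NF-kappaB matches alone. Of 32851 windows of this length, 50.8% held the NF-kappaB letters, 13.6% TATAAA and 7.81% TGANTCA, so the first tells little between genes. A match is a description of letters and not evidence of binding.

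Selp was near the limit of what this depth can detect. Selp (chr1:164115264-164150026, plus strand), which encodes P-selectin and is stored in endothelial granules, had 16 UMIs in 11 ECs. They came from 2 replicates, 5 from eNOS-/- replicate 1 and 11 from eNOS-/- replicate 2, the 2 libraries with the most EC UMIs. The eNOS+/+ ECs had none among 3003910 UMIs, which allows up to 0.999 CPM, and eNOS-/- replicate 3 none among 488367. Of these UMIs 13 were in Structural and 3 in Proliferative ECs, and none in Tip ECs, Mural or Immune cells. The 9 Structural ECs with a UMI were deep cells, with a median of 6061 UMIs against 489 in the others.

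Cd34 had the opposite order to Sele. Cd34 (chr1:194938819-194961279, plus strand) overlaps the antisense gene Gm16897. In Tip ECs it stood at 788, 1068 and 835 CPM in eNOS+/+ and at 1011, 945 and 771 CPM in eNOS-/- replicates 1 to 3. In Structural ECs it stood at 564, 636 and 650 CPM and at 716, 634 and 665 CPM. Every Tip sum lay above every Structural sum, with means of 903 ± 123 and 644 ± 49.4 CPM, and above every Proliferative sum (630 ± 56.3 CPM). Structural below Tip ECs in all 6 replicates was found for 7.08% of genes and Proliferative below Tip ECs for 9.02%, and Cd34 alone of the 9 genes met either. Structural and Proliferative ECs did not differ beyond their spread (3 of 6 replicates each way). After thinning, 36.6% of Tip, 26.9% of Structural and 25.7% of Proliferative ECs held a Cd34 UMI, against 4.51% of Rods. Only 421 of 1508 Rods had the 500 UMIs needed. Mural cells stood at 136 ± 59.5 CPM and Immune cells at 57.0 ± 56.3 CPM (n = 5 each), below ECs in all 5 replicates compared, orders found for 19.2% and 30.2% of genes.

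**Figure D2:**
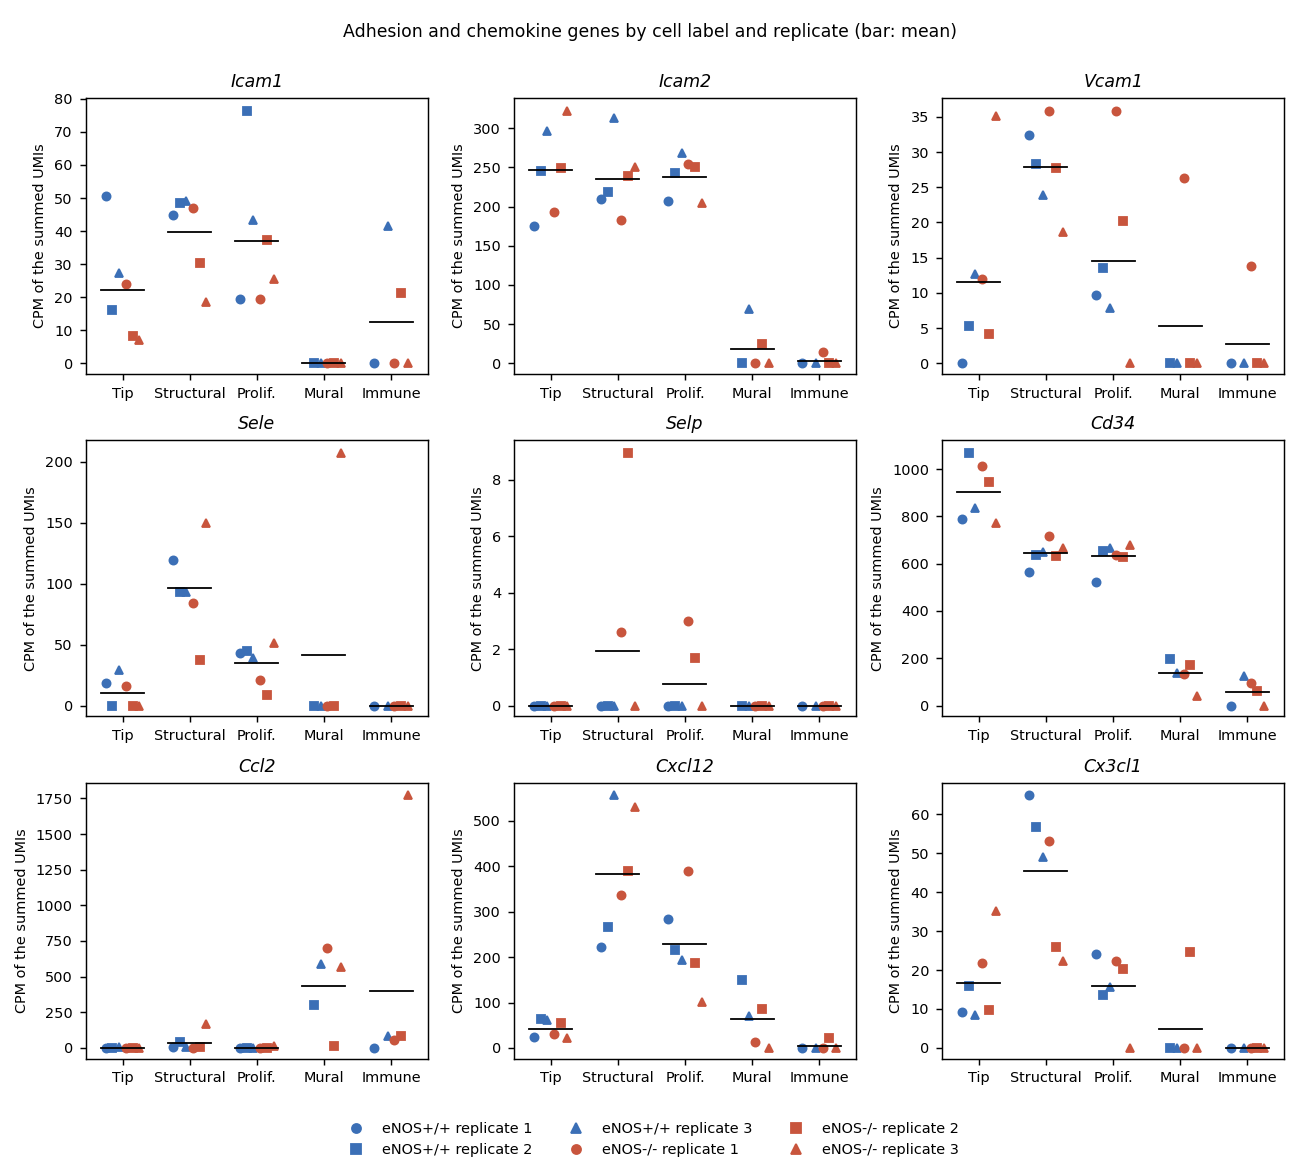
CPM of the summed UMIs (vertical axis) of each gene in Tip, Structural and Proliferative ECs, Mural and Immune cells (horizontal axis), 1 point per replicate with at least 10 cells and a bar at the mean. Sele is higher in Structural than in Tip ECs and Cd34 lower in all 6 replicates, and the single high points of Sele in Mural and of Ccl2 in Immune cells are both eNOS-/- replicate 3.

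Of the chemokines, Cxcl12 had the most EC UMIs (2199) and set Tip ECs apart. Cxcl12 (chr6:117168535-117181367, plus strand) is the ligand of Cxcr4. In Structural ECs it stood at 222, 267 and 557 CPM in eNOS+/+ and at 337, 389 and 531 CPM in eNOS-/- replicates 1 to 3. In Tip ECs it stood at 23.0, 64.1 and 61.0 CPM and at 29.9, 55.9 and 21.0 CPM. Each Structural sum was 4.17 to 25.2 times the Tip sum of its library, and the means were 384 ± 137 and 42.5 ± 19.9 CPM. Proliferative ECs, at 229 ± 97.9 CPM, were above Tip ECs in all 6 replicates and below Structural ECs in 4 of 6, which is within the spread of both. Its receptor ran the other way: Cxcr4 stood at 296 ± 97.0 CPM in Tip, 75.1 ± 38.7 in Structural and 62.9 ± 13.7 in Proliferative ECs, and Tip was above Structural ECs in all 6 replicates, with 147 and 120 CPM in eNOS-/- replicate 3 as the closest pair. Of Mural cells, 3.27% held a Cxcl12 UMI at full depth, beside 1.26% of Rods and 13.0% of Structural ECs. The median depths were 827.5, 361 and 491 UMIs per cell. After thinning the shares were 0.680% (1 of 147 Mural cells), 2.14% and 11.4%, so Mural cells did not stand above Rods.

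Cx3cl1 (chr8:94772009-94782427, plus strand), a chemokine tethered to the endothelial membrane, stood at 45.4 ± 17.3 CPM in Structural, 16.7 ± 10.4 in Tip and 16.0 ± 8.82 in Proliferative ECs. It was higher in Structural than in Proliferative ECs in all 6 replicates and than in Tip ECs in 5 of 6, the exception being eNOS-/- replicate 3 with 6 and 5 UMIs. In that replicate the Proliferative sum was 0, which allows up to 38.4 CPM, above the 22.4 CPM of its Structural ECs. The order with Proliferative ECs is therefore not settled there. Tip and Proliferative ECs did not differ beyond their spread. Its receptor Cx3cr1, the microglial fractalkine receptor, stood at 1714 ± 225 CPM in Immune cells (n = 5) and 16.6 ± 6.49 CPM in ECs (n = 6), while the ligand had no UMI in Immune cells.

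Ccl2 was read mostly from Mural cells. Ccl2 (chr11:82035571-82037453, plus strand), which recruits monocytes, overlaps Gm17268 on the other strand. In Mural cells it stood at 298 and 590 CPM in eNOS+/+ replicates 2 and 3 and at 699, 12.3 and 570 CPM in eNOS-/- replicates 1 to 3. The Mural sum was above the EC sum of its library in all 5, but eNOS-/- replicate 2 had 1 UMI among 47 Mural cells. That order was found for 5.48% of the 8451 genes with 100 or more EC UMIs. Ccl2, with 69 EC UMIs, is not in that set, so the share does not cover genes as scarce in ECs. Cxcl1, a neutrophil chemokine compared here after its values were seen, had its lowest Mural sum in that same replicate, with 794 and 798 CPM in eNOS+/+ and 1279, 36.8 and 2705 CPM in eNOS-/-. Of Mural cells, 15.4% (33 cells of 21 barcode families) held a Ccl2 UMI, against 0.354% of ECs and 0.133% of Rods. After thinning these shares were 10.2%, 0.197% and 0.238%. In Immune cells 27 of its 37 UMIs came from 3 cells of eNOS-/- replicate 3, which put that sum at 1772 CPM, and the other 4 sums lay between 0 and 85.0 CPM. The 10 Immune cells with a Ccl2 UMI carried the mural list at 3686 CPM, against 74.1 CPM in the 206 without, and the immune list at 12953 against 10577 CPM. In the 3 cells of eNOS-/- replicate 3 the mural list was at 375 CPM, against 239 CPM in the other 26 there. The part of mural RNA in the Ccl2 of Immune cells was not tested.

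Within ECs, Ccl2 sat in few cells and in few libraries. Of its 69 EC UMIs, 66 were in 18 Structural ECs, 45 of them in 10 cells of eNOS-/- replicate 3 and 11 in 3 cells of eNOS+/+ replicate 2. In both libraries these cells carried less of the EC list, and more of the mural or the immune list, than the other Structural ECs. The 10 cells of eNOS-/- replicate 3 carried the mural list at 8785 CPM and the EC list at 3420 CPM, against 3295 and 5852 CPM in the 176 others of that label and library. The 3 cells of eNOS+/+ replicate 2 carried the immune list at 6368 CPM and the EC list at 1318 CPM, against 161 and 6048 CPM in the 241 others. Without eNOS-/- replicate 3, the mean of Structural ECs went from 37.7 to 11.6 CPM. Whether these cells are ECs that make Ccl2, doublets or other cells under an EC label was not tested.

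**Figure D3:**
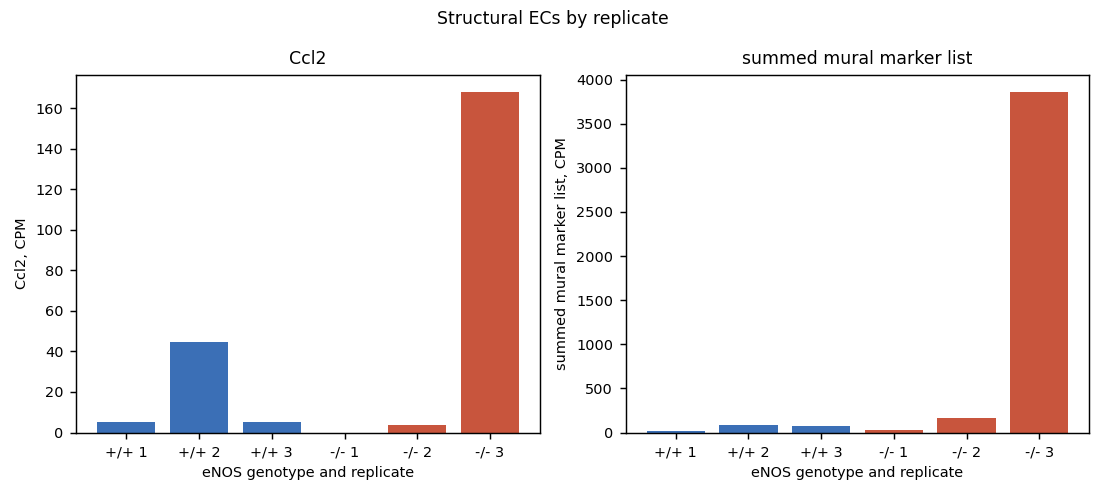
Structural ECs of each replicate (horizontal axis): left, Ccl2 in CPM, right, the summed list of 8 mural markers in CPM. Both bars are highest in eNOS-/- replicate 3 (168 and 3864 CPM).

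Within ECs, the genes fell into cells that differed. For each gene with 100 or more EC UMIs, ECs of a replicate with a UMI of it were set against those without, leaving that gene out of the totals. These splits use cells chosen by a measured UMI, so they are given without a test. Sele and Icam1 went together. Icam1 stood at 157 CPM in the 186 ECs with a Sele UMI and at 25.0 CPM in the 5739 without, higher in 6 of 6 replicates, by a factor of 6.29. In the other direction, Sele stood at 284 CPM in the 212 ECs with an Icam1 UMI and at 27.9 CPM in the others, higher in 6 of 6 replicates and 10.2 times as high. In eNOS-/- replicate 3 the pairing rested on the 1 cell with 27 Sele UMIs, which held 1 Icam1 UMI. Without it both differences were found in 5 of 6 replicates, by factors of 6.24 and 8.76. A gene higher in all 6 replicates made up 1.81% of 8451 genes in the split by Sele and 1.36% in that by Icam1. Within Structural ECs alone the factors were 6.69 and 10.7, each in 6 of 6 replicates (1.41% and 0.911% of genes) and in 5 of 6 without that cell, and with barcode families merged into 1 cell those of all ECs were 5.97 and 8.08.

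Cxcl12 lay with Vcam1 and with arterial genes. Vcam1 stood at 51.9 CPM in the 653 ECs with a Cxcl12 UMI and at 14.8 CPM in the others, 3.50 times as high and higher in 6 of 6 replicates, and Cxcl12 was 2.76 times as high in ECs with a Vcam1 UMI, again in 6 of 6. Within Structural ECs alone these factors were 3.68 and 2.01, each in 5 of 6 replicates, and eNOS+/+ replicate 2 went the other way in both. A summed list of 7 arterial genes (Gja4, Gja5, Sox17, Bmx, Hey1, Efnb2 and Unc5b) stood at 1144 CPM in ECs with a Cxcl12 UMI and at 346 CPM in the others, and in each replicate at 819 to 1374 against 271 to 478 CPM, with no overlap. A list of 6 venous genes (Nr2f2, Ephb4, Vwf, Aplnr, Flt4 and Slc38a5) went the other way, at 941 against 1193 CPM, lower in 6 of 6 replicates. Of single genes, 3.59% were higher in all 6 replicates in the split by Cxcl12, 0.947% in that by Vcam1 and 1.68% in that by Cx3cl1. The arterial list was also higher in all 6 replicates in ECs with a Vcam1 UMI (1.89 times) and with a Cx3cl1 UMI (1.60 times), and not with a Sele UMI (1.12 times, in 2 of 6) or an Icam1 UMI (0.823 times, in 1 of 6). In ECs with a Sele UMI the venous list stood at 809 against 1169 CPM and was higher in 1 of 6 replicates.

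Sele and Cxcl12 both set Structural ECs apart from Tip ECs, but did not go together within the label. Cxcl12 in Structural ECs with a Sele UMI stood at 225 CPM against 411 CPM in the others, lower in 5 of 6 replicates. Over all ECs the factor was 0.936, with 3 of 6 replicates each way, and 1.13 with barcode families merged. Vcam1 was shared by both groups of cells, as it was 3.31 times as high in ECs with a Sele UMI (5 of 6 replicates). Cx3cl1 was 3.01 times as high there (5 of 6). Cd34 and Icam2 differed little in the split by Sele (0.938 and 0.862 times). Shallow cells are less likely to hold a UMI of either gene, and with cells of at least 500 UMIs only, the Sele and Icam1 factors of all ECs were 6.58 and 10.9. In Structural ECs the median cell with a Sele UMI held 2350.5 UMIs and the median cell without 469. The groups were not matched in depth, and the part of depth was not tested.

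**Figure D4:**
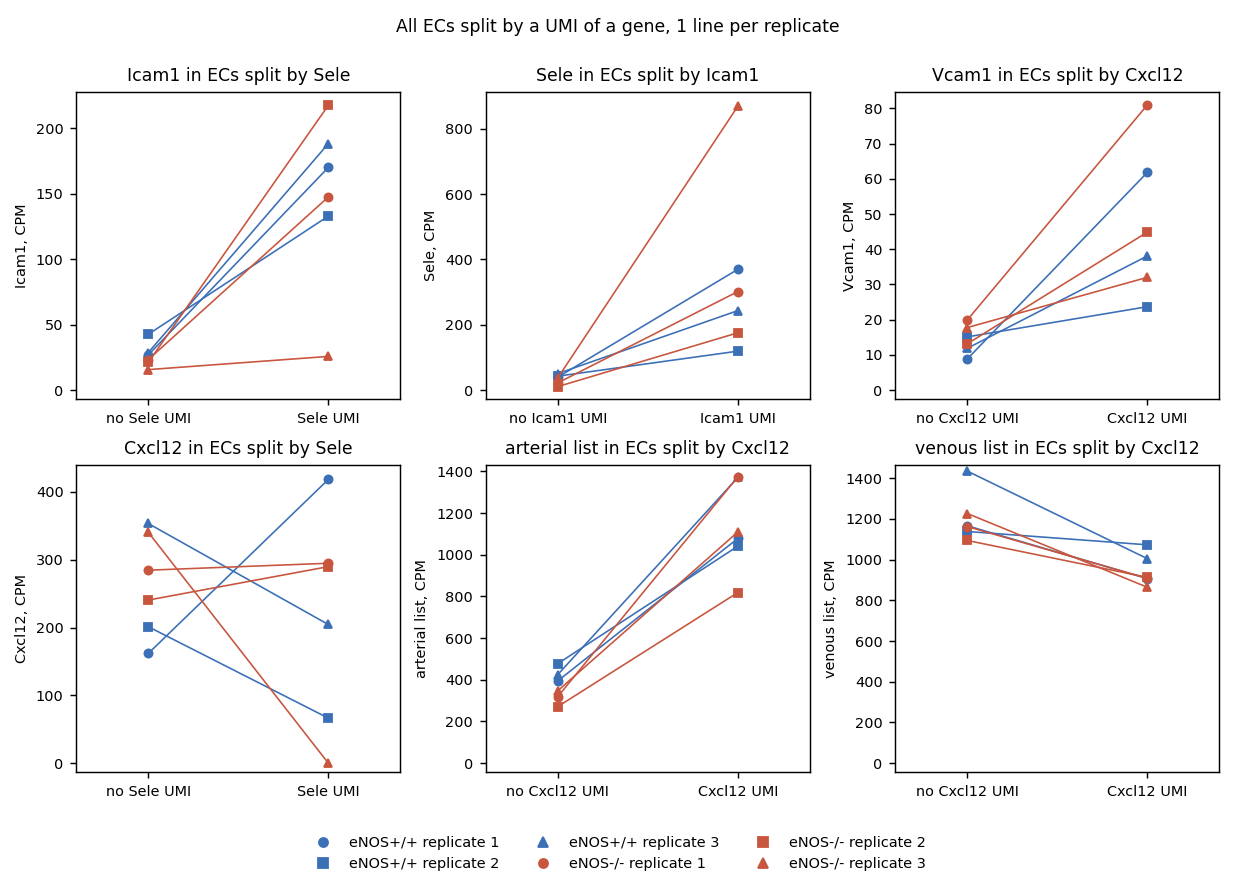
All ECs of each replicate (1 line each) with and without a UMI of the gene named in each panel title, and the CPM (vertical axis) of another gene or marker list in them. Icam1 and Sele are each higher with a UMI of the other (in eNOS-/- replicate 3 through 1 cell), Vcam1 and the arterial list are higher with a Cxcl12 UMI in 6 of 6 replicates, and Cxcl12 has no common direction in the split by Sele.

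Between genotypes, none of the 9 genes passed the test in all ECs, in any EC label or in Mural cells. None had the counts to be tested in Immune cells, and Neuroglia and the remaining labels were not compared. The sums of all ECs were compared with edgeR's quasi-likelihood test over 9483 genes with Benjamini-Hochberg adjustment at a threshold of 0.05. Only 2 genes were called (0.0211%), 548 had an unadjusted p under 0.05, and 7 of the 9 genes had the counts to be tested. Replicates are the labels' separate samples of pooled retinas, and p-values measure the spread between them. The median log2 fold change of the 7 was -0.06 and of all genes tested 0.01.

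Icam1 came nearest. Its EC levels in eNOS-/-, given above, were all below those in eNOS+/+, with means of 25.4 ± 8.87 and 43.4 ± 4.70 CPM (SD, n = 3 each). A gene with no overlap in this direction made up 5% of those tested, and Vcam1, which did not overlap in the other direction (23.4 ± 6.36 against 17.6 ± 0.732 CPM), belonged to a further 5.39%. The log2 fold change of Icam1 was -0.68 (SE 0.28, 95% interval -1.28 to -0.09), with an adjusted p of 0.824 by edgeR (0.484 to 1.00 over 11 alternatives), and its direction held in all 11. In Structural ECs, Icam1 overlapped between genotypes, with a log2 fold change of -0.48 (SE 0.35, adjusted p = 0.932 by edgeR).

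The other genes lay nearer to 0 or varied more. The intervals show what these 3 replicates against 3 leave possible. Cd34, with 5939 EC UMIs, had a log2 fold change of 0.06 with an interval of -0.35 to 0.47, and Icam2 one of -0.06 with an interval of -0.52 to 0.39. Cxcl12 lay at 0.19 (-0.34 to 0.73), Cx3cl1 at -0.31 (-0.97 to 0.35), Vcam1 at 0.42 (-0.28 to 1.12) and Sele at -0.41 (-1.29 to 0.47). The EC sums of Sele spread more among eNOS-/- than among eNOS+/+ replicates, and stood at 74.0, 50.3 and 64.4 CPM in eNOS+/+ and at 51.0, 19.4 and 90.1 CPM in eNOS-/-. The 90.1 CPM of eNOS-/- replicate 3 are 35.0 CPM without the 1 cell that held 27 of its 44 Sele UMIs, and the log2 fold change is then -0.86 (SE 0.33, adjusted p = 0.823 by edgeR). Without eNOS-/- replicate 2 it was 0.07 and without eNOS-/- replicate 3 -0.87. Of these, the fit without eNOS-/- replicate 2 alone turned the sign. The 19.4 CPM are those of the shallow eNOS-/- replicate 2, where 0.883% of ECs held a Sele UMI against 3.82 to 4.81% in the other replicates, and the part of depth or of its mitochondrial share was not tested. With cells of at least 500 UMIs only, the log2 fold change of Sele was -0.40 and that of Icam1 -0.71.

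Selp and Ccl2 did not pass the filter on low counts. Fitted without the filter in all ECs, their adjusted p-values by edgeR were 0.809 and 0.237. Ccl2 stood at 2.43, 16.8 and 3.94 CPM in eNOS+/+ and at 0, 1.65 and 94.2 CPM in eNOS-/-, so that 1 library, the one whose ECs carried mural markers, held 46 of the 50 UMIs of eNOS-/-.

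Within EC labels no call was made for these genes either. The Structural ECs of eNOS-/- also carried more of a list of 6 B cell markers, at 266 to 312 CPM against 47.9 to 200 CPM in eNOS+/+, and its part in these values was not tested. Of 5510 genes tested in Tip ECs 1 was called (0.0181%), of 7577 in Structural ECs 2 (0.0264%) and of 4607 in Proliferative ECs 1 (0.0217%), and 3, 7 and 4 of the 9 genes were tested there, with none called. The widest differences were those of Sele in Proliferative ECs, with a log2 fold change of -1.20 (SE 0.59, interval -2.41 to 0.01, adjusted p = 0.795 by edgeR) on 29 and 23 UMIs, and of Cx3cl1 in Structural ECs, with -0.66 (SE 0.36, adjusted p = 0.895 by edgeR) and 56.9 ± 7.88 CPM in eNOS+/+ against 33.9 ± 16.9 CPM in eNOS-/- (n = 3 each). Whether the genotype difference itself changed with the EC label was tested with an interaction term over 7019 genes. None was called (0%, with 241 at an unadjusted p under 0.05), and the smallest p among the 7 genes tested was 0.122, for Cx3cl1 (adjusted p = 1.00 by edgeR).

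**Figure D5:**
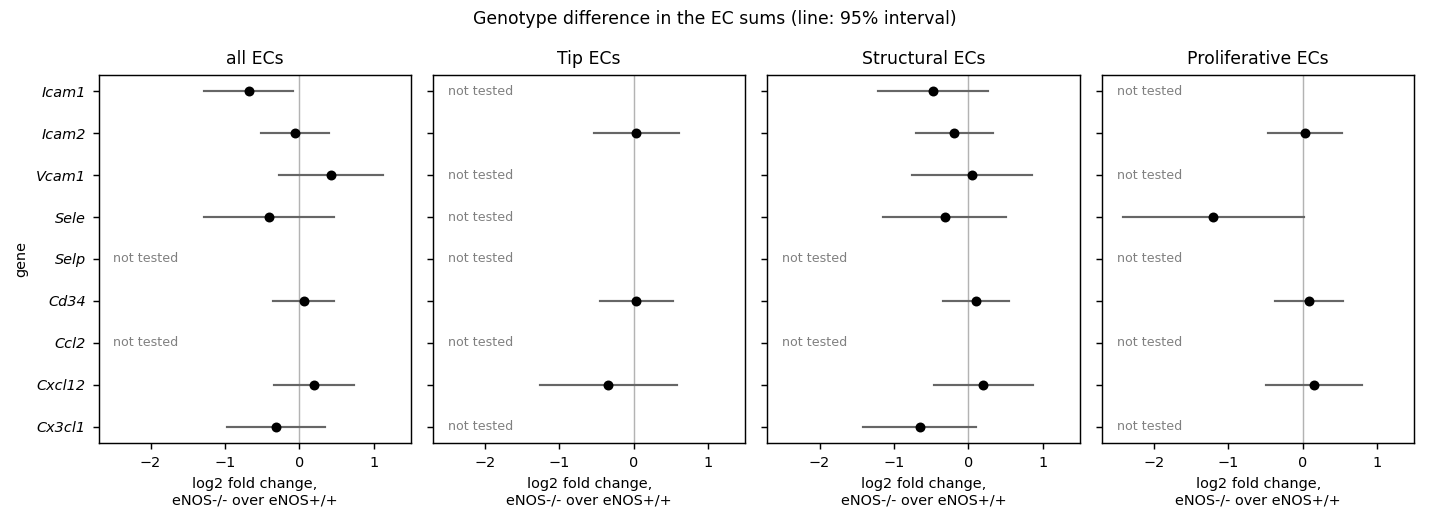
Log2 fold change of eNOS-/- over eNOS+/+ (horizontal axis) of each gene (vertical axis) in the sums of all ECs and of each EC label, with 95% intervals, and genes with too few counts given as not tested. Icam1 in all ECs is the 1 gene whose interval (-1.28 to -0.09) does not span 0.

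In Mural and Immune cells the comparison was of 2 eNOS+/+ sums with 3 eNOS-/- sums. No gene was called among 1973 in Mural cells (0%, with 114 at an unadjusted p under 0.05, 0 by DESeq2) or among 464 in Immune cells (0%, with 21 at an unadjusted p under 0.05, 0 by DESeq2). The interval of the log2 fold change of Mural Ccl2 ran from -1.41 to 1.41, and Mural Cd34 had a log2 fold change of -0.41 (-2.05 to 1.22). The mural list itself stood at 15199 and 16230 CPM in the eNOS+/+ and at 26363 to 26719 CPM in the eNOS-/- Mural sums, and its part in these values was not tested. None of the 9 genes had the counts to be tested in Immune cells.

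The wider pathway also gave no call between genotypes in ECs. Of 12 other endothelial adhesion and junction genes in the table, 11 were tested, 5 higher and 6 lower in eNOS-/- in value and none past the test in either direction. The 2 of smallest p among the higher values were Jam2, a junction protein, with a log2 fold change of 0.43 (SE 0.21, adjusted p = 0.877 by edgeR), and Pecam1, which is CD31, with 0.17, and among the lower values Alcam with -0.58 and Podxl, a sialomucin related to Cd34, with -0.22. Of 13 other chemokines and decoy receptors 4 were tested and none passed. Cxcl2, a neutrophil chemokine, stood at 40.0, 16.8 and 36.1 CPM in eNOS+/+ and at 17.3, 6.18 and 10.2 CPM in eNOS-/-, with a log2 fold change of -1.49 (SE 0.43, adjusted p = 0.712 by edgeR). The genotypes overlapped by 1 library, eNOS-/- replicate 1. Ackr2, a decoy receptor for inflammatory chemokines, lay at -0.03, Ackr3, the second receptor of Cxcl12, at 0.11, and Cxcl1 at 0.30 with an SE of 0.70.

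Of 13 receptors and integrins that bind these ligands, 4 had the counts in ECs, Cxcr4 with 0.36 (SE 0.21), Itgb1 with 0.07, Itga4 with 0.01 and Cx3cr1 with -0.84 (SE 0.40, adjusted p = 0.866 by edgeR), and none passed. All 11 genes of a list of cytokine receptors and NF-kappaB pathway genes were tested, 2 higher and 9 lower in value, with none past the test. Relb and Rela, subunits of NF-kappaB, lay at -0.52 and -0.48, and Nfkb2 and Irf1 at 0.13 and 0.08. The medians of the lists were -0.02 for adhesion, 0.04 for chemokines, 0.04 for counter-receptors and -0.09 for NF-kappaB, beside 0.01 for all genes tested.

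Genes with a like pattern over the 10 cell types were named for the 8 genes with 200 or more UMIs, by Pearson's correlation of log2(mean CPM + 10) over 10 cell types that share libraries. Tie1, an endothelial receptor kinase, and Foxq1 were most like Cd34 (r = 0.976 and 0.977), and Rasip1, a regulator of vascular lumen formation, and Zfp366 most like Icam2 (0.967 and 0.962). Sele was nearest to Gpcpd1 (0.905) and Filip1 (0.894). Cx3cl1 was nearest to Ablim1 (0.923), Icam1 to Sod1 (0.918) and Marc2 (0.909), Vcam1 to Rab18 (0.917) and Dbi (0.915), and Cxcl12 to Rtraf (0.868) and Raly (0.866). Ccl2 was nearest to Lgals1 (0.896), a gene of mural and connective tissue cells, and Fabp5 (0.864). Labels with few cells set part of these values.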

How the data were processed

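Retinal cells enriched with CD31 beads were sequenced by Drop-seq. Reads were assigned to genes by the authors with kb-python on build GRCm38. They filtered cells on genes and on percent of mitochondrial UMIs, and annotated them with Seurat (version 3 in the submitters' processing notes, which also name bcl2fastq), and deposited raw UMI counts per gene and cell with an annotation table, of whose 17 columns 11 were not used. The deposited annotation also gives the percent of mitochondrial UMIs, and it calls the cells singlets. No doublet caller was run here.

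UMIs were summed per annotated cell type and replicate (at least 10 cells). Genotypes were compared with edgeR 4.0.16 (filterByExpr, TMM, quasi-likelihood F test) in R 4.3.3, with DESeq2 1.42.0 as an alternative. The procedure was tested on simulated data. Intervals of log2 fold changes use the test's degrees of freedom. For shares given after thinning, cells with 500 or more UMIs were thinned to 500 UMIs and shallower cells were left out. Other shares are at full depth. Python 3.11.15 and pandas 2.3.3 were used. Coordinates are from GENCODE for GRCm38. Whether counting used strand is not given in the sources used here, so antisense partners cannot be told apart.

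The genes and lists were chosen with earlier results of these data known. Genes named are the 9, Nos3, the 2 most alike genes of each, and per pathway list any gene called and the 2 of smallest p in each direction.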

Additional observations from a re-analysis of the deposited data

How the results depend on the processing

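None of the 9 genes was called in any comparison under any of the alternatives, and the counts of all genes called depended on the setting. Leaving out 1 replicate at a time gave 0 to 78 genes in all ECs, 0 to 25 in Tip, 0 to 28 in Structural and 0 to 73 in Proliferative ECs, and 0 to 2 in Mural and in Immune cells, with the highest counts of the EC labels without eNOS-/- replicate 3. Without the filter on low counts, 84, 8, 74, 10, 2 and 8 genes were called in that order, and 4 by the interaction term. Cells with at least 500 UMIs gave 1, 2 and 0 in all, Tip and Structural ECs, and DESeq2 gave 2 in Tip ECs. With the replicate number as a block (replicate block), 11 genes were called in Structural and 3 in Proliferative ECs, 1 in Mural and 2 in Immune cells. The numbers do not pair the libraries, as same-numbered deviations correlated at 0.132, -0.0697 and 0.114 in all ECs for replicates 1 to 3.

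Leaving out 1 replicate took the median log2 fold change of the genes tested from -0.29 to 0.069 in Structural and from -0.27 to 0.071 in Proliferative ECs, and turned the sign of small fold changes. The ranges in all ECs were -0.017 to 0.12 for Cd34, -0.18 to 0.14 for Icam2 and -0.87 to 0.074 for Sele. In Tip ECs they were -0.037 to 0.16 for Cd34 and -0.14 to 0.28 for Icam2. In Structural ECs they were -0.044 to 0.77 for Cxcl12, -0.19 to 0.16 for Vcam1, -0.31 to 0.052 for Icam2 and -0.79 to 0.11 for Sele. In Proliferative ECs they were -0.028 to 0.15 for Cd34, -0.064 to 0.12 for Icam2 and -0.51 to 0.34 for Cxcl12, and in Mural cells -0.60 to 0.70 for Ccl2. The replicate block also turned Vcam1 in Structural ECs (-0.062) and Cxcl12 in Proliferative ECs (-0.054). Cells with at least 500 UMIs turned Icam2 in Proliferative ECs (-0.014) and Ccl2 in Mural cells (0.053), and the fit without the filter turned Ccl2 in Mural cells (0.34). The cause of these changes was not tested. Merging barcode families, splitting on cells of at least 500 UMIs within ECs, leaving out the EC with the most Sele UMIs (Sele log2 fold change -0.86 in all and -0.83 in Structural ECs), and mean levels without eNOS-/- replicate 3 were added after seeing the data. The first 3 moved none of the 40 recomputed ratios of the EC splits beyond the spread between replicates. Shares of cells with a UMI did depend on the setting: 58 of the recomputed shares moved and 50 stayed the same.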
